A study of Homo sapiens with 2 samples.

Results

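Classical cadherins and the genes that set the balance between epithelial and mesenchymal character were examined in the transcriptomes of a pair of prostate cancer (PCa) cell lines. The group holds CDH1, CDH2 and CDH3, VIM, the transcription factor genes ZEB1, ZEB2, SNAI1 and SNAI2, and the splicing regulator genes ESRP1 and ESRP2. They were taken by symbol from the expression table of the whole series, and 10 of 10 were found among its 21382 genes. The cells were RC77 T/E, an immortalized line from a primary prostate tumour, and MDA PCa 2b, from a bone metastasis. Both were untreated, and 1 RNA-Seq library was sequenced from each, so no value has a replicate error and no difference between the lines was tested. Their media differed: MDA PCa 2b cells grew with serum, cholera toxin, epidermal growth factor, hydrocortisone, insulin and further supplements, and RC77 T/E cells in a serum-free keratinocyte medium with epidermal growth factor and pituitary extract. Cell line and medium cannot be told apart.

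Cadherins are calcium-dependent adhesion proteins that join neighbouring cells, and their tails bind catenins, which link the junction to actin. In an epithelial-mesenchymal transition (EMT), factors of the SNAIL and ZEB families bind E-box sequences and repress CDH1, while CDH2 and VIM are commonly induced. ESRP1 and ESRP2 keep exon choice in its epithelial form, and in the prostate CDH1 is found in both epithelial layers while CDH3 marks the basal one.

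Levels are in TPM, the share of a library's transcripts that belongs to a gene once its length is allowed for. The number of reads cannot be got back from TPM, so depth is unknown and values carry no interval for counting error. The deposited values of 1 TPM or more had largely lost their decimal mark, which was put back from the deposited mean and standard error of each row. This gave 1 solution for 6 of the 10 genes, 2 for CDH1 and CDH3, and 3 for ESRP1 and ESRP2. Where several values are possible, all are given, and they differ by a factor of 10 or 100. The plain ratio between the lines is the same for each of them, and all are above 1 TPM. Over all genes the lowest positions summed to 751125 TPM in MDA PCa 2b against 682469 TPM in RC77 T/E, and the highest to 2416346 and 2140326 TPM. The latter is more than the TPM of a library can sum to, so all marks cannot be at their highest together and that setting is an extreme. The lowest positions, which the filter and the log2 ratios below take, are the opposite extreme and not a best estimate.

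The epithelial genes of the group were present in both lines, and the mesenchymal marker VIM and the repressor gene SNAI2 in RC77 T/E cells only, by a threshold of 1 TPM in each library. The study's methods instead set 1 TPM as the least mean over its samples, along with a least share of samples. In MDA PCa 2b, 4 of the 10 genes reached it, CDH1, CDH3, ESRP1 and ESRP2, beside 49.6% of all 21382 genes. In RC77 T/E, 6 reached it, the same 4 with VIM and SNAI2, beside 52.8% of all genes. CDH2, ZEB1, ZEB2 and SNAI1 stayed under 1 TPM in both lines. In bulk RNA, a low value from few positive cells and one from little RNA per cell cannot be told apart. The count in MDA PCa 2b fell to 2 genes with a threshold of 5 TPM and each open mark at its lowest position, and was again 4 with the marks at their highest.

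**Figure D1:**
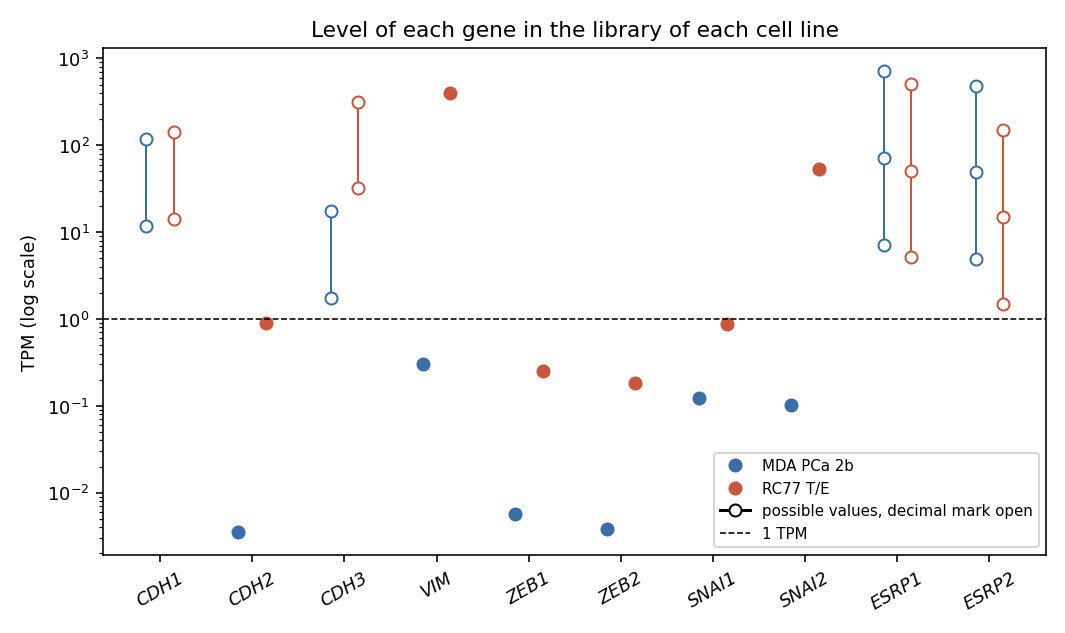
TPM of each of the 10 genes on a log axis, blue for MDA PCa 2b and red for RC77 T/E, with 1 library per line. Filled points have a fixed value, joined open points are the values that are possible where the decimal mark is open, and the dashed line is 1 TPM; VIM and SNAI2 are the genes whose points lie on opposite sides of it.

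Of the classical cadherins, CDH1 encodes E-cadherin, the main adhesion protein of epithelia. CDH1 (ENSG00000039068, chromosome 16 of GRCh38, 68737292 to 68835537) had 11.8 or 118 TPM in MDA PCa 2b against 14.2 or 142 TPM in RC77 T/E. The level in RC77 T/E was 1.21 times that in MDA PCa 2b. CDH1 was thus near equal in the 2 lines, whichever position of the mark is taken.

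CDH3 encodes P-cadherin and lies just upstream of CDH1, from 68636189 to 68727468 on chromosome 16. Its level was 1.73 or 17.3 TPM in MDA PCa 2b against 31.8 or 318 TPM in RC77 T/E, 18.3 times as high. CDH3 was higher in RC77 T/E at every possible pair of values, which do not overlap.

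CDH2 encodes N-cadherin, which is typical of neural and mesenchymal cells (chromosome 18, 27932879 to 28177946). It stood at 0.00357 TPM in MDA PCa 2b against 0.894 TPM in RC77 T/E. The value in RC77 T/E came close to 1 TPM without reaching it, and 11390 genes were higher there. The level of CDH1 was 15.9 or 159 times that of CDH2 in RC77 T/E, so that E-cadherin transcripts exceeded N-cadherin transcripts in both lines.

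VIM encodes vimentin, the intermediate filament protein of mesenchymal cells, and showed the greatest ratio of the group. VIM (ENSG00000026025, chromosome 10, 17228241 to 17237593) had 0.300 TPM in MDA PCa 2b against 400.1 TPM in RC77 T/E, 1332 times as high. Between 186 and 1347 genes were higher than VIM in RC77 T/E, depending on the open marks of other genes. In MDA PCa 2b, 11695 genes were higher. The balance of CDH1 and VIM thus differed in direction: CDH1 was 39.1 or 391 times as high as VIM in MDA PCa 2b, and 0.0355 or 0.355 times as high in RC77 T/E. RC77 T/E cells carried VIM above CDH1 with CDH1 near the level of the other line.

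SNAI1 and SNAI2 encode the zinc finger repressors Snail and Slug. SNAI1 (chromosome 20, 49982980 to 49988886) stood at 0.123 TPM in MDA PCa 2b against 0.881 TPM in RC77 T/E. SNAI2 (chromosome 8, 48917598 to 48921740) was at 0.102 and 53.7 TPM, 527 times as high in RC77 T/E. The paralogs were near each other in MDA PCa 2b, both far under 1 TPM, while in RC77 T/E SNAI2 was 61.0 times as high as SNAI1. Slug was therefore the 1 factor of the 4 that reached the threshold, and it did so in 1 line.

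ZEB1 and ZEB2 encode zinc finger and homeobox repressors. ZEB1 (chromosome 10, 31318495 to 31529814) stood at 0.00573 TPM in MDA PCa 2b against 0.251 TPM in RC77 T/E. ZEB2 (chromosome 2, 144364364 to 144521057) was at 0.00385 and 0.182 TPM. Both were higher in RC77 T/E and both were low there, with 12558 and 12848 genes above them. ZEB1, ZEB2 and SNAI1 together summed to 0.132 TPM in MDA PCa 2b against 1.31 TPM in RC77 T/E, beside 53.7 TPM of SNAI2 alone.

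ESRP1 and ESRP2 encode the epithelial splicing regulatory proteins. ESRP1 (chromosome 8, 94641074 to 94707466) had 7.12, 71.2 or 712 TPM in MDA PCa 2b against 5.11, 51.1 or 511 TPM in RC77 T/E, 0.717 times as high. ESRP2 (chromosome 16, 68229033 to 68238102) had 4.86, 48.6 or 486 TPM in MDA PCa 2b against 1.5, 15.0 or 150.0 TPM in RC77 T/E. The level of ESRP2 reached 3.24 times its RC77 T/E level in MDA PCa 2b. Both genes were above 1 TPM in each line and both were lower in RC77 T/E, ESRP2 by more. Which of the 2 was the more abundant in a line is not determined, since their marks are open.

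To set these differences beside those of other genes, the log2 ratio of the lines was taken, RC77 T/E over MDA PCa 2b, after adding a pseudocount of 1 TPM to each value. On this scale the change of low genes is understated. A mean of at least 1 TPM over the lines was reached by 11624 genes, whose median log2 ratio was -0.15, and by 6 of the 10. VIM and SNAI2 passed this filter only through their level in RC77 T/E, and so had to differ. Called genes had a log2 ratio of at least 1 in either direction.

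With that rule CDH3, VIM and SNAI2, 3 of the 6 genes that passed, were higher in RC77 T/E by 2-fold or more, as were 19.4% of the 11624 genes (2250 genes). ESRP2, 1 of the 6, was higher in MDA PCa 2b by 2-fold or more, as were 20.0% of these genes (2324 genes). The balance of all genes turned when centred on the median, with 2542 genes higher in RC77 T/E against 1880 lower there, and when scaled to the upper quartile, with 2509 and 1921. The log2 ratio was 8.27 for VIM, 5.63 for SNAI2, 3.58 for CDH3 and -1.23 for ESRP2. It was 0.26 for CDH1 and -0.41 for ESRP1, inside the 2-fold limits. Of the 11624 genes, 48 (0.413%) had a log2 ratio at least as large as VIM, 141 (1.21%) as SNAI2, and 436 (3.75%) as CDH3. With open marks at their highest position there were 127 (1.09%) for VIM and 305 (2.62%) for SNAI2, and with a pseudocount of 0.1 TPM 893 for CDH3. In the other direction 1694 genes (14.6%) were at least as low as ESRP2. These ranks of VIM and SNAI2 are among genes that one line alone could bring past the filter.

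Relative to the median of all genes, which lay at -0.15, the log2 ratio of CDH1 was 0.41, that of ESRP1 -0.26 and that of ESRP2 -1.08, and none of the 10 changed direction. The median of all 10 genes was 0.53, beside -0.01 for the 16832 genes above 0 in either line. Over the 6 that passed the filter it was 1.92. For the 4 genes under the filter the log2 ratio was 0.92 for CDH2, 0.74 for SNAI1, 0.32 for ZEB1 and 0.24 for ZEB2. These rest on the pseudocount: with 0.1 TPM in place of 1 they were 3.26, 2.14, 1.73 and 1.44. In all, 8 of the 10 genes were higher in RC77 T/E, as were 47.5% of the 16832 genes.

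**Figure D2:**
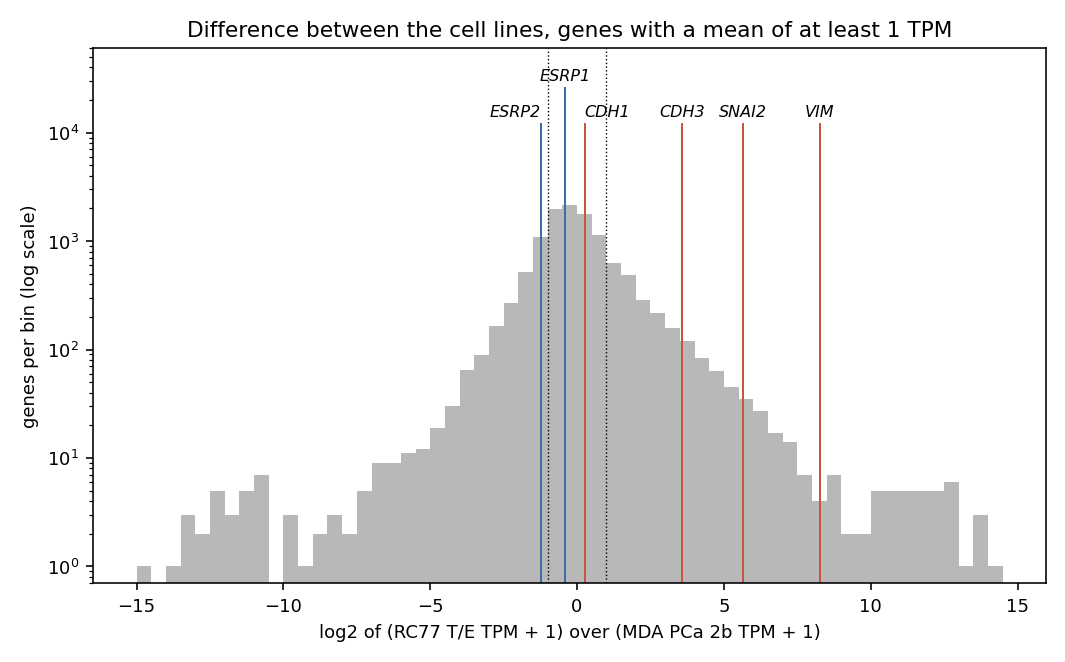
Number of genes, on a log axis, by log2 ratio of RC77 T/E over MDA PCa 2b (pseudocount 1 TPM), for the 11624 genes whose mean was at least 1 TPM, in grey bins. Vertical lines mark the 6 genes of the group that passed this filter and dotted lines a 2-fold difference; CDH3, SNAI2 and VIM lie in the right tail at 3.58, 5.63 and 8.27.

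The labelled tissue was checked against prostate markers. Of 8 luminal markers, 6 were higher in MDA PCa 2b by 2-fold or more, 0 in RC77 T/E, and 5 of the 6 were under 1 TPM in RC77 T/E. KLK3, which encodes prostate-specific antigen, and TMPRSS2, a membrane protease gene, were high in MDA PCa 2b at 5323 and 483 TPM. Of the luminal list, KLK2, KLK3 and HOXB13 are listed at 0 in RC77 T/E, while the keratin genes KRT8 and KRT18 were present in both. All 7 basal markers were higher in RC77 T/E by 2-fold or more: KRT5, the basal keratin gene, had 0.00435 TPM in MDA PCa 2b against 4027 TPM in RC77 T/E, and ITGB4, an integrin gene, 4.51 and 463 TPM. Of the 7, 3 passed the filter through RC77 T/E alone. The basal cadherin gene CDH3 and SNAI2 were thus high in the line with the basal markers. A value listed at 0 may be a failed estimate, because EEF1A1, which every cell uses, is listed at 0 in MDA PCa 2b.

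Markers of cells other than epithelium were summed, since VIM is abundant in fibroblasts, endothelium and leukocytes. Of 7 fibroblast markers, 0 reached 1 TPM in MDA PCa 2b, while in RC77 T/E 1 did, and the list summed to 2.82 and 9.23 TPM. The most abundant in RC77 T/E was COL1A1, a collagen gene, with 0.554 TPM in MDA PCa 2b against 8.24 TPM in RC77 T/E, while LUM and COL3A1 are listed at 0 in RC77 T/E and DCN was at 0.0531 TPM there. FAP, a fibroblast gene placed in the mesenchymal list and named after its values were seen, had 0.0219 and 9.35 TPM. None of 5 endothelial markers reached 1 TPM, with sums of 0.221 and 0.0833 TPM, VWF highest in MDA PCa 2b at 0.191 TPM and PECAM1 listed at 0 in RC77 T/E. Of 6 leukocyte markers only CD14 reached 1 TPM, with 4.92 TPM in RC77 T/E, the list summed to 0.797 and 5.43 TPM, and PTPRC and LYZ are listed at 0 in RC77 T/E. These sums stand beside 400.1 TPM of VIM in the same library. The part of other cell types in the VIM level was not tested.

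Other cadherins of the classical and related types were mostly under 1 TPM. Of 17 such genes, 2 reached 1 TPM in MDA PCa 2b, while in RC77 T/E it was reached by 3. CDH13 encodes T-cadherin, which lacks the usual tail and is anchored by a lipid. It had 0.114 TPM in MDA PCa 2b against 53.8 TPM in RC77 T/E, 472 times as high and near the level of SNAI2. CDH26 had 5.73 and 0.850 TPM, and CDH24 reached 2.18 times its MDA PCa 2b level in RC77 T/E, with a log2 ratio of 0.90 that meets the limit once centred (1.06), scaled to the upper quartile (1.03), with the mark at its highest position (1.12) or with a pseudocount of 0.1 TPM. CDH11, a mesenchymal cadherin gene named after its values were seen, had 0.0264 and 1.30 TPM. High CDH3 in RC77 T/E was thus accompanied by high CDH13, while most of the 17 genes were near 0 in both lines.

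Of 9 catenin genes and partners measured, 6 reached 1 TPM in each line, 3 of them higher in RC77 T/E by 2-fold or more, and 0 in MDA PCa 2b. CTNND1 encodes p120-catenin, which steadies cadherins at the membrane, and had 147 TPM in MDA PCa 2b against 132 TPM in RC77 T/E. JUP, the plakoglobin gene, had 73.4 and 184.9 TPM. CTNNB1, the beta-catenin gene, reached 1.24 times its MDA PCa 2b level in RC77 T/E, as near equal as CDH1. VCL, the vinculin gene, was 2.38 times and CTNNAL1 2.83 times as high there, with log2 ratios of 1.00 that just meet the limit.

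Further transcription factors linked to EMT split between the lines. Of 12, 8 had a mean of at least 1 TPM, 6 of these higher in RC77 T/E by 2-fold or more, and 1 in MDA PCa 2b. Without the filter the latter count was 2, with GSC, a gene named after its values were seen, at 1.36 TPM in MDA PCa 2b and listed at 0 in RC77 T/E. Of the 6, 5 were under 1 TPM in MDA PCa 2b and passed the filter through RC77 T/E alone. The gene higher in MDA PCa 2b was TWIST1, a basic helix-loop-helix factor gene, with 23.1 or 231 TPM in MDA PCa 2b against 6.66 or 66.6 TPM in RC77 T/E, 3.47 times as high in MDA PCa 2b. TWIST1 was above 1 TPM in both lines, and the higher line was the one with SNAI2 under 1 TPM. Its paralog TWIST2 and the chromatin protein gene HMGA2 are listed at 0 in MDA PCa 2b. In RC77 T/E, HMGA2 had 13.1 or 131 TPM and TWIST2 9.05, 90.5 or 905 TPM. The forkhead factor gene FOXC1 had 0.108 TPM in MDA PCa 2b against 5.14 TPM in RC77 T/E, and TCF4 0.0167 and 2.13 TPM. SOX4 reached 2.95 times its MDA PCa 2b level in RC77 T/E. The factor genes present in RC77 T/E thus included SNAI2, TWIST1, TWIST2, HMGA2, FOXC1, TCF3, TCF4 and SOX4, and ZEB1 and ZEB2 were not among them. TCF3, which encodes the partner of many helix-loop-helix factors, reached 0.823 times its MDA PCa 2b level in RC77 T/E.

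SNAIL and ZEB proteins act through co-repressors. Of 11 such genes, 10 reached 1 TPM in MDA PCa 2b and all did in RC77 T/E, 2 were higher in RC77 T/E by 2-fold or more, and 0 in MDA PCa 2b. LOXL2, which encodes a lysyl oxidase that binds Snail, had 0.563 TPM in MDA PCa 2b against 49.4 TPM in RC77 T/E. SUV39H1, a histone methyltransferase gene, reached 2.36 times its MDA PCa 2b level in RC77 T/E. CTBP1, whose product binds ZEB1, was 2.04 times and EHMT2 2.01 times as high in MDA PCa 2b, with log2 ratios of -0.86 and -0.94 that do not reach the limit (that of CTBP1 reaches it, at -1.03, with its mark at the highest position, and also with a pseudocount of 0.1 TPM). The median of the list was -0.31, beside -0.15 for all genes.

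Epithelial transcription factors that oppose EMT differed in both directions. Of 11, 6 had the lower value in RC77 T/E and 5 the higher one. A mean of at least 1 TPM was found for 9, 5 of these higher in MDA PCa 2b by 2-fold or more, and 1 in RC77 T/E. ELF3, an ETS factor gene, had 43.4 or 434 TPM in MDA PCa 2b against 2.00 or 20.0 TPM in RC77 T/E, 21.7 times as high in MDA PCa 2b. GRHL2, a grainyhead factor gene known to sustain CDH1, reached 5.33 times its RC77 T/E level in MDA PCa 2b, OVOL1 3.68 times, EHF 2.40 times and GRHL1 2.37 times. Centred on the median of all genes, EHF and GRHL1 no longer met the limit, with log2 ratios of -0.97 and -0.86, nor did they when scaled to the upper quartile (-0.98 and -0.88), and 3 of the 5 did. GRHL3 went the other way and reached 3.52 times its MDA PCa 2b level in RC77 T/E. All 6 were above 1 TPM in both lines, and KLF4, at 7.17 and 8.56 TPM, was near equal. ESRP2 thus went the way of the 5 factors, whereas CDH1 was near equal, as KLF4 was.

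Of 15 epithelial surface and adhesion genes, all had a mean of at least 1 TPM, 4 were higher in RC77 T/E by 2-fold or more, 1 in MDA PCa 2b, and 10 lay within the 2-fold limits. ERBB3, a receptor kinase gene, reached 8.97 times its RC77 T/E level in MDA PCa 2b. CD24 had 1.03 TPM in MDA PCa 2b against 125 TPM in RC77 T/E, TMEM30B 0.0405 and 23.8 TPM, and MUC1 0.471 and 2.72 TPM, while MAL2 reached 2.87 times its MDA PCa 2b level in RC77 T/E. The median was -0.04, and 0.11 once centred on the median of all genes. The threshold of 1 TPM was reached by 13 of the 15 in MDA PCa 2b, all but TMEM30B and MUC1, and by each of them in RC77 T/E.

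Of 19 mesenchymal genes other than VIM, 17 had the higher value in RC77 T/E. A mean of at least 1 TPM was found for 15, 11 of these higher in RC77 T/E by 2-fold or more, and 0 in MDA PCa 2b. Of the 11, 8 were under 1 TPM in MDA PCa 2b and passed this filter through RC77 T/E alone. TGFBI, a matrix protein gene induced by TGF-beta, had 0.223 TPM in MDA PCa 2b against 707 TPM in RC77 T/E. CD44, a hyaluronan receptor gene, had 0.786 and 364 TPM, SPARC, a matrix protein gene, 0.504 and 106.6 TPM, and the tropomyosin gene TPM2 1.35 and 185.0 TPM. Like VIM, these 4, with the largest log2 ratios of the list, were low in MDA PCa 2b and abundant in RC77 T/E. The most abundant gene of the list in both lines, the fibronectin gene FN1, was near equal, with 873 TPM in MDA PCa 2b against 1078 TPM in RC77 T/E, and CALD1 had 40.9 or 409 TPM against 51.7 or 517 TPM. POSTN is listed at 0 in RC77 T/E, and CNN1 was at 0.0118 and 0.0108 TPM, so the list was not high as a whole. CD44 is also abundant in basal epithelium.

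**Figure D3:**
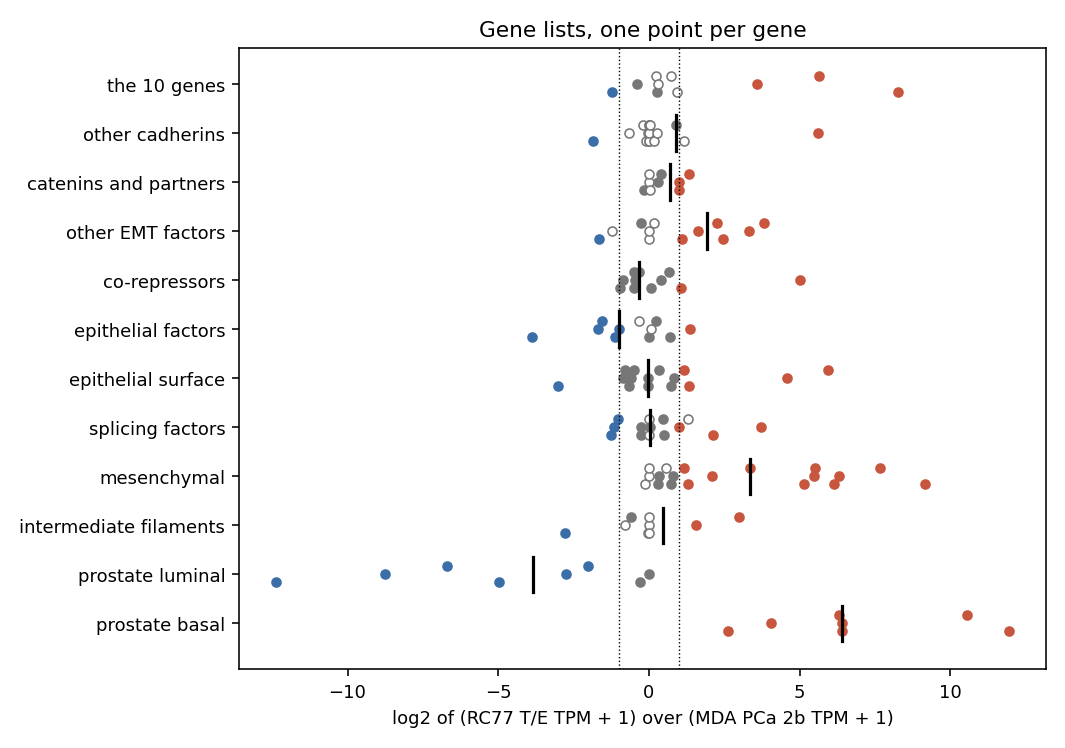
Log2 ratio of RC77 T/E over MDA PCa 2b (pseudocount 1 TPM) for each gene of 12 lists, with red points higher in RC77 T/E by 2-fold or more, blue points higher in MDA PCa 2b by 2-fold or more, and open points genes with a mean under 1 TPM. Black bars are medians over the filled points, not drawn for the 10 genes, and dotted lines a 2-fold difference; the mesenchymal median lies at 3.34 (1.31 without the filter, 6.04 with a pseudocount of 0.1 TPM), the basal one at 6.40 and the luminal one at -3.85 (-6.63 with that pseudocount, -7.47 with open marks at their highest).

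In RC77 T/E, VIM had the highest level of 10 non-keratin intermediate filament genes, a chosen list and not the whole class. Of the other 9, 4 had a mean of at least 1 TPM, 2 of them higher in RC77 T/E by 2-fold or more, and 1 in MDA PCa 2b, each of the 3 under 1 TPM in the other line. INA, the internexin gene, had 0.0440 TPM in MDA PCa 2b against 7.35 TPM in RC77 T/E, and NES, the nestin gene, 0.0649 and 2.11 TPM. NEFH, a neurofilament gene, had 8.20 and 0.339 TPM. The desmin gene DES was at 0.00382 and 0.00749 TPM.

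Splicing factors beside ESRP1 and ESRP2 differed in both directions. Of 14, 11 had a mean of at least 1 TPM, with 3 higher in RC77 T/E by 2-fold or more, and 3 in MDA PCa 2b. QKI, which encodes an RNA-binding protein of mesenchymal exon choice, had 0.0142 TPM in MDA PCa 2b against 12.5 TPM in RC77 T/E, 875 times as high. MBNL2 was 6.70 times and PTBP2 2.33 times as high in RC77 T/E. RBM47, an epithelial splicing factor gene, reached 2.49 times its RC77 T/E level in MDA PCa 2b, MBNL3 3.72 times and SRSF1 2.25 times, the last with a log2 ratio of -1.04 that centring brought to -0.88, inside the limit. RBFOX2 and MBNL1, linked to mesenchymal splicing, were 1.40 and 1.45 times as high in RC77 T/E. RC77 T/E thus had QKI beside both ESRP genes, while MDA PCa 2b had the ESRP genes with QKI far under 1 TPM.

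The ZEB genes are known targets of the miR-200 family. The hairpin genes MIR200A, MIR200B, MIR200C, MIR141 and MIR429 are all listed at 0 in both lines. Libraries of long RNA do not measure mature miRNAs, and nothing about their level can be read from these zeros.

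Of the 10 genes, 3 lie close together on chromosome 16. CDH3 ends 9.82 kb before CDH1 starts, and ESRP2 lies 398 kb before CDH3. From ESRP2 to CDH1 the table lists 11 genes that overlap the stretch, all with a mean of at least 1 TPM, of which 1 was higher in RC77 T/E by 2-fold or more, 3 in MDA PCa 2b and 7 neither. The gene with the RC77 T/E difference was CDH3. Beside ESRP2, those higher in MDA PCa 2b were SMPD3, with 2.90 and 0.543 TPM, and MIR6773. The neighbours CDH3 and CDH1, with 18.3 and 1.21 times the level in RC77 T/E, thus differed in their ratio although they adjoin.

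**Figure D4:**
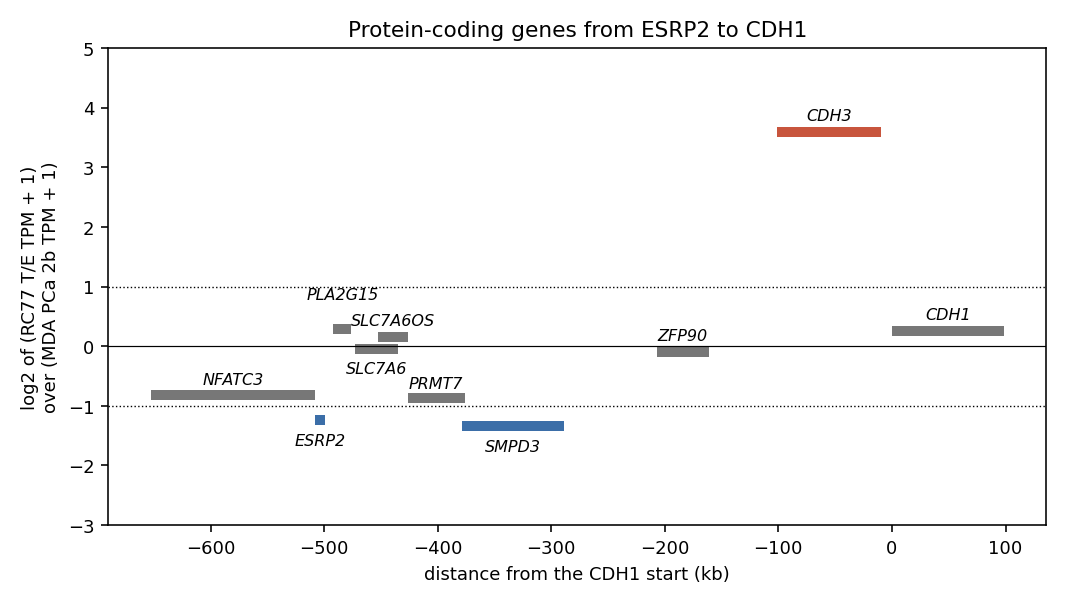
Log2 ratio of RC77 T/E over MDA PCa 2b (pseudocount 1 TPM) for the protein-coding genes from ESRP2 to CDH1, each drawn as a bar over its extent in kb from the start of CDH1. Dotted lines mark a 2-fold difference; CDH3 stands at 3.58 beside CDH1 at 0.26, and ESRP2 at -1.23.

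Genes that overlap the group were listed from GENCODE release 29, because whether the TPM values use the strand is not stated, although the libraries kept it. VIM-AS1, on the opposite strand to VIM, had 3.44e-08 TPM in MDA PCa 2b against 3.88 TPM in RC77 T/E, following VIM in direction. ZEB1-AS1 had 0.552 TPM in MDA PCa 2b against 5.03 TPM in RC77 T/E, above ZEB1 itself in both lines. ZEB2-AS1 is listed at 0 in both. The antisense transcript of ZEB1 was thus over 1 TPM in the line where ZEB1 was not. ESRP2 shares 149 bases with NFATC3 on the opposite strand, and MIR6773, a hairpin of 74 bases on its own strand, is listed at 6443 TPM in MDA PCa 2b and at 0 in RC77 T/E. Such a short feature gets a high TPM from few reads, and how reads were divided between it and ESRP2 is not stated.

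Promoter windows of 300 bases, 250 before a start site and 50 from it on, came from RefSeq on GRCh38.p14, with 11 windows for 4 of the genes: 7 for ZEB1, 2 for CDH2 and 1 each for VIM and ZEB2. CDH1, CDH3, SNAI1, SNAI2, ESRP1 and ESRP2 had no window in the set of 35116 used here, which does not mean that RefSeq lacks their start sites. The windows were searched on both strands for the E-box of SNAIL and ZEB factors, CACCTG or its reverse complement CAGGTG, which lies within the general E-box CANNTG. The former was in 2 of the 11 windows, both of ZEB1, and in 20.6% of all 35116 windows. The latter was in 6 of the 11 and in 68.7% of all. The ZEB1 windows with the motif, at chr10:31318167-31318466 and chr10:31318966-31319265 on the plus strand, are shown with it in capitals, because ZEB1 encodes a factor that binds this sequence. The VIM window, chr10:17227991-17228290 on the plus strand, is shown because VIM differed most, and that of ZEB2, chr2:144520070-144520369 on the minus strand, as the paralog of ZEB1.
ZEB1, first window: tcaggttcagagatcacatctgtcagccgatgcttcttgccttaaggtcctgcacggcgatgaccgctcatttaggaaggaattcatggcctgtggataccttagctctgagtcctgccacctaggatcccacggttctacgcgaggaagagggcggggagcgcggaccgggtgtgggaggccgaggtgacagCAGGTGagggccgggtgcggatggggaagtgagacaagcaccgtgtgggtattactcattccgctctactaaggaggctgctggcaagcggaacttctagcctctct
ZEB1, second window: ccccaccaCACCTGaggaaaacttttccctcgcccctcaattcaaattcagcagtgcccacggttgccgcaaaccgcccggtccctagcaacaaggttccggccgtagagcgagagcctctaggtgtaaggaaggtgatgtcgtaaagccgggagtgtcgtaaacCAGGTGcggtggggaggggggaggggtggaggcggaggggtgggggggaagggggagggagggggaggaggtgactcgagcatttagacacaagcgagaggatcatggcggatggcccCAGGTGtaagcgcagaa
ZEB2: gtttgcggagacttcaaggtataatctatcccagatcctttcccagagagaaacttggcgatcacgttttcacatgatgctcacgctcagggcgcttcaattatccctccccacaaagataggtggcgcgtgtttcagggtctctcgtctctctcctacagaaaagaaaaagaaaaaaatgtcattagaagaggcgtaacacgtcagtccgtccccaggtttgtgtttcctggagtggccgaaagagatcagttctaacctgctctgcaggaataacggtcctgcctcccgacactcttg
VIM: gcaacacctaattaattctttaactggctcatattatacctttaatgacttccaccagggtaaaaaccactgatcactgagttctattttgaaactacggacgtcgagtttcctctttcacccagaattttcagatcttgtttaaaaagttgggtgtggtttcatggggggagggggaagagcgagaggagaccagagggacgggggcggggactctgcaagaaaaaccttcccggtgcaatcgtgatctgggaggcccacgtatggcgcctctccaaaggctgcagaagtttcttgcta
In the second ZEB1 window the motif begins 242 and 85 bases before the start site and at base 34 from it, and in the first 57 bases before. The VIM and ZEB2 windows do not hold these letters. The matches describe the sequence and are not evidence of binding.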

How the data were processed

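Total RNA of 1 culture per cell line was sequenced from paired-end, directional libraries. The submitters' processing notes name CASAVA, FastQC 0.11.9, Trimmomatic 0.38, Salmon 1.2.0 and GRCh38. The row identifiers, however, have the form that the tool Cufflinks gives, which is not among the tools named. Which tool made the TPM values, and so their zeros, was not resolved. The authors deposited TPM per locus with the mean and standard error of both lines, and no read counts were used. The decimal mark was missing from 10361 values of MDA PCa 2b and 11082 of RC77 T/E. In these it was restored by keeping each position, with 1 to 3 digits before it and at least 3 after it, at which mean and standard error came out as deposited, and the other values were used as deposited. Of 22791 rows, 16284 had 1 position left and 6507 several. The design had assumed plain TPM. The restoration was run on 5000 simulated rows whose marks were removed by the rule it assumes, and the true position was among those kept in all 5000. This checks the steps only, and cannot show that the deposited values lost their marks by that rule. Sums and log2 ratios take the lowest position, which is a convention and not a best estimate. Each of 22704 loci was used once, and loci of a symbol were summed.

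The group and its lists were chosen with earlier results of these data known. The text names all 10 genes, from the lists of catenins, transcription factors and splicing factors each gene past 2-fold and the 3 with the highest mean, and from each other list the 4 largest log2 ratios. Genes given for position, for a value listed at 0 or as a low, equal or small-count example were added afterwards. AFDN, NECTIN1 to NECTIN4 and MIR200CHG were not analysed here. Alternatives were the threshold, pseudocount, centring, upper-quartile scaling, largest locus and no filter, and, chosen after seeing the data, the highest position of open marks. Python 3.11.15, numpy 2.4.6 and matplotlib 3.10.9 were used. Some genes of the lists enter the counts and medians, and their own values are not reported here.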

Additional observations from a re-analysis of the deposited data

How the results depend on the processing

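No paired analysis was possible because neither line has more than 1 library. A value was taken as moved when it changed by more than 1.5 times, or in sign. The counts of the 10 genes at least 2-fold higher in either line were 3 and 1 under every alternative, each changed alone. With a pseudocount of 0.1 TPM, CDH2, SNAI1, ZEB1 and ZEB2 also had log2 ratios above 1, and only the filter left them out. That setting was not combined with no filter. The counts of all genes stayed within 1.5 times, though centring and scaling turned which line had more. At 5 TPM, the count in MDA PCa 2b was 2 in place of 4. The largest locus moved no value named here.

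With a pseudocount of 0.1 TPM the log2 ratio was 3.26 for CDH2, 1.73 for ZEB1, 1.44 for ZEB2 and 2.14 for SNAI1, and the medians were 4.0 for other EMT factors, 6.04 for mesenchymal genes, 1.38 for intermediate filaments, 4.86 for leukocyte markers and -6.63 for luminal markers. Centring on the median gave 0.41 for CDH1, 0.39 for ZEB2 and -0.26 for ESRP1, and medians of -0.16 for co-repressors, 0.20 for splicing factors and, changed in sign, 0.11 for epithelial surface genes. Scaling to the upper quartile gave 0.40 for CDH1 and -0.27 for ESRP1, and medians of -0.17, 0.20 and 0.11 for the same lists.

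Without the filter, the medians were 0.53 for the 10 genes, 0.0012 for other cadherins, 0.40 for catenins, 1.1 for other EMT factors, -0.34 for epithelial factors, 1.31 for mesenchymal genes and 0.0009 for leukocyte markers, and changed in sign to -0.0107 for intermediate filaments and -0.0535 for fibroblast markers, as more genes near 0 enter. Counts of list genes past 2-fold, and of genes with ratios as large as those of the 6 genes past the filter, were also recomputed, by a choice made after seeing the data. The latter moved to 893 for CDH3 with the smaller pseudocount and to 127 for VIM and 305 for SNAI2 with the highest marks. For other cadherins in RC77 T/E the count was 2 in place of 1 with the smaller pseudocount, centring, scaling, no filter or the highest marks. For epithelial factors in MDA PCa 2b it was 3 in place of 5 with centring or scaling. For co-repressors in MDA PCa 2b it was 1 in place of 0 with the smaller pseudocount or the highest marks, and for other EMT factors there 2 in place of 1 without the filter. With all open marks at their highest position, an extreme that exceeds the total TPM of a library and was chosen after seeing the data, the luminal median was -7.47. With depth unknown, no value near 0 can be set beside a limit of detection.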
